A study of Mus musculus with 9 samples.

Results

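The Id genes and the bone morphogenetic protein (BMP) genes around them were followed in cultured mouse cortical neurons, in neural stem cells (NSCs) and in yNSCs, cells with neural stem cell properties that were obtained from cortical neurons. The members were Id1, Id2, Id3 and Id4, the ligands Bmp2, Bmp4 and Bmp7, the receptor Bmpr1a and the inhibitory Smads Smad6 and Smad7, taken with every probe set that the array annotation gives to 1 of these symbols. They amounted to 22 probe sets of 45037 on the array and to 10 genes of 18193 with a symbol of their own. The genes had been chosen on the basis of measured differences between these same cell groups, so their own values are given as a description, without p-values.

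RNA was hybridised to 9 Affymetrix Mouse430_2 arrays, 3 for each group, which the labels letter A, B and C as biological replicas. Neurons came from the cortex of late embryonic or newborn mice and were grown in Neurobasal with B27, glutamine, antibiotics and AraC, a nucleoside that kills dividing cells. NSCs and yNSCs shared another medium, DMEM/F12 with N2 supplement and heparin, to which the mouse growth factors EGF and bFGF, glutamine and antibiotics were added. To make the yNSCs, neurons received lentiviruses for the doxycycline-dependent activator rtTA and for an inducible wild-type YAP, and the methods describe later passages of yNSCs as free of doxycycline, although the labels do not say so for the arrays. Neither the strain nor the sex of the mice is given for these arrays. The stem cell groups therefore differed from neurons in medium and growth as well as in identity, and neurons were the shared reference of both comparisons against them. The yNSCs differed from the NSCs in origin, in viral infection and in YAP induction, which cannot be told apart here. The tissue and age from which the NSCs came are not stated here. Nothing tells whether a letter stands for a separate animal or culture, so the tests measure only the spread between these arrays.

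Id proteins are small helix-loop-helix proteins without a DNA-binding region. They bind the E proteins, the common partners of tissue-specific basic helix-loop-helix (bHLH) factors, and so keep factors that drive neuronal differentiation away from their target sites. BMP ligands bind type I and type II receptors, the receptors phosphorylate Smad1, Smad5 and Smad9, and these enter the nucleus with Smad4, where the Id genes are among their best-known targets. In the developing and adult brain Id proteins are known for keeping progenitors undifferentiated, and BMP signals for holding stem cells quiescent and for steering them towards astrocytes.

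To show the DNA in front of the genes that differed in direction, the 250 bases before the RefSeq transcription start (build GRCm38.p6) of Id3, which was higher in both stem cell groups, are printed beside those of Id2 and Id4, which were lower by most or all of their probe sets. The Id3 window lies at chr4:136143572-136143821 on the plus strand, the Id2 window at chr12:25096093-25096342 on the minus strand and the Id4 window at chr13:48260866-48261115 on the plus strand. Each is written 5′ to 3′ on the strand of its gene, and capitals mark every match to 1 of 3 motifs that were searched on both strands.
Id3: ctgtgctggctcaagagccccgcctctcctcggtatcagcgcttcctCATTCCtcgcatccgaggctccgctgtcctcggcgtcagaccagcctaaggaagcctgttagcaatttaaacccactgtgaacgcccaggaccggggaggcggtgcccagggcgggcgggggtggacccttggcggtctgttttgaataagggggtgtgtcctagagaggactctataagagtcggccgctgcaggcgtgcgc
Id2: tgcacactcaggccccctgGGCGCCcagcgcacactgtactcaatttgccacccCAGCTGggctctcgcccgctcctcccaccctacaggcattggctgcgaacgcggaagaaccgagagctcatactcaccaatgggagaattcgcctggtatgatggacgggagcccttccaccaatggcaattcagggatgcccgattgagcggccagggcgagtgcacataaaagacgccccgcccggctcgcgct
Id4: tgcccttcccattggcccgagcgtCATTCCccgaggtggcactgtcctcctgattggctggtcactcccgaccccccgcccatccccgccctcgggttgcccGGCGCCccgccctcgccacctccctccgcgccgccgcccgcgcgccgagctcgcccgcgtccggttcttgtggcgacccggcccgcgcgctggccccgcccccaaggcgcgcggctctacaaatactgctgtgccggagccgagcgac
The motifs were the E-box CANNTG, bound by bHLH and E protein dimers, the palindrome GGCGCC, known as a GC-rich Smad element of Id gene enhancers, and GGAATG, the core bound by the TEAD factors that carry YAP to DNA, which reads CATTCC on the other strand. Id3 held 1 GGAATG match, Id4 held 1 GGAATG and 1 GGCGCC match, and Id2 held 1 GGCGCC match and 1 E-box. Among 32851 windows of the same length, 66.2% held an E-box, 9.6% GGCGCC and 12.6% GGAATG. Bmp4 had 3 E-boxes, Bmpr1a 1 GGCGCC match and Smad6 none of these letters in its window. The windows of Id1, Bmp2 and Bmp7 were not in the table of promoters used here. A match is a run of letters and not a measured binding site, and the distal enhancers of the Id genes lie outside such short windows.

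Values are log2 expression summaries computed by robust multi-array average (RMA), so a difference of 1 is a doubling. The lower quartile of the arrays averaged 3.71 in neurons, 3.43 in NSCs and 3.49 in yNSCs, and a group mean below its own quartile is called near background. Array medians lay between 4.90 and 5.02. Yap1 averaged 7.29 in neurons, 9.72 in NSCs and 9.18 in yNSCs, which puts the yNSCs 1.90 above neurons (SE 0.148, n = 3 arrays a group) with a difference of -0.54 from NSCs. All 6 neuron markers were lower in both stem cell groups than in neurons, and 5 of 6 neural stem cell markers (Nes, Sox2, Vim, Prom1 and Sox9, but not Fabp7) were higher in both. For Prom1 the NSC to neuron difference was only 0.44, and the arrays of these groups overlapped. Expression summed over the neuron markers ranged from 14.77 to 14.83 in neurons, from 11.58 to 11.73 in NSCs and from 9.95 to 10.25 in yNSCs on the log2 scale. Map2 made up most of these sums in the stem cell groups, and the markers did not run one way between them. Tubb3, Snap25 and Stmn2 were called higher in yNSCs than in NSCs, by 1.28, 2.12 and 1.93, the same direction as Id4, while Map2, Rbfox3 and Syt1 were called lower. The summed neural stem cell markers ranged from 14 to 14.08 in neurons, from 14.75 to 14.90 in NSCs and from 14.73 to 14.74 in yNSCs, so the neuron cultures carried these transcripts too. Fabp7, with a mean of 13.55, made up most of the sum in neurons.

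Among the Id genes, Id1 and Id3 were much higher in both kinds of stem cells than in neurons, Id4 was lower in both, and Id2 was lower in both by 2 of its 3 probe sets. Id1, an Id protein abundant in stem-like cells of the adult brain and in endothelium, gave values of 4.78, 4.30 and 5.03 in the 3 neuron arrays. Its NSC values were 8.45, 8.67 and 8.72, and its yNSC values 11.01, 10.99 and 11.13. The 3 groups stood apart without overlap, with neurons lowest and yNSCs highest. The difference between yNSCs and neurons was 6.34 (SE 0.166, 95% interval 5.98 to 6.70), an 81-fold higher level, and that between NSCs and neurons was 3.91 (3.55 to 4.27), or 15-fold. Between the stem cell groups Id1 differed by 2.43 (2.07 to 2.79), which is 5.39-fold higher in yNSCs.

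Id3, which often acts together with Id1 in progenitors, gave 4.62, 4.68 and 5.10 in neurons, 9.68, 9.80 and 9.87 in NSCs, and 9.76, 9.82 and 9.77 in yNSCs. All stem cell arrays were above all neuron arrays, while the stem cell groups overlapped. Both groups exceeded neurons by 4.98 (SE 0.132, 95% interval 4.69 to 5.27), a 31.6-fold difference. The yNSCs and NSCs differed by 0.00 with an interval of -0.29 to 0.29, so a difference of up to 0.29 in either direction cannot be told from none with these arrays.

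Id2, an Id protein that is also known in maturing neurons, was measured by 3 probe sets that did not run the same way. On 1422537_a_at the neurons read 11.29, 11.02 and 11.29, the NSCs 9.28, 9.21 and 9.28, and the yNSCs 10.10, 10.15 and 10.17. On 1435176_a_at the neurons read 10.96, 10.54 and 10.60, the NSCs 9.34, 9.18 and 9.42, and the yNSCs 10, 10.30 and 9.80. In both, neurons were highest, NSCs lowest and yNSCs between them, with no overlap of groups. The yNSC to neuron difference was -1.06 (95% interval -1.29 to -0.83) on the first, a 2.08-fold lower level, and -0.67 (-1.0 to -0.33) on the second. The NSC to neuron differences on the same probe sets were -1.94 (-2.18 to -1.71) and -1.39 (-1.72 to -1.05). The probe set 1453596_at ran the other way, with 5.26, 4.48 and 5.02 in neurons, 5.86, 5.84 and 5.77 in NSCs and 6.11, 6.21 and 6.34 in yNSCs. There all stem cell arrays were above all neuron arrays, by 1.30 (SE 0.170) in yNSCs and 0.90 in NSCs. Which transcripts of the gene each probe set detects was not examined.

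Id4, which is known for opposing other Id proteins in several systems and for marking quiescent stem cells of the hippocampus, gave the same order of groups on all 3 of its probe sets. On 1423259_at the neurons read 10.24, 10.23 and 10.03, the NSCs 5.58, 6.17 and 6.20, and the yNSCs 8.44, 8.31 and 8.40. Neurons were highest and NSCs lowest, and no groups overlapped. The NSC to neuron difference was -4.18 (95% interval -4.53 to -3.84), or 18.2-fold lower, and the yNSC to neuron difference -1.78 (-2.13 to -1.44), or 3.44-fold lower. On 1450928_at the means were 8.99 in neurons, 4.92 in NSCs and 7.18 in yNSCs, and on 1423260_at they were 8.35, 5.05 and 6.59 in that order. The yNSCs exceeded the NSCs by 2.40, 2.26 and 1.54 on the 3 probe sets, which is 5.28-fold, 4.78-fold and 2.91-fold. The annotation gives all 3 the same sequence record, so they are not independent readings of the gene. The selection had described the Id genes as moving in different directions in the stem cell groups. Here no Id probe set was on opposite sides of neurons in NSCs and yNSCs, and the groups differed in how far Id1, Id2 and Id4 lay from neurons.

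**Figure D1:**
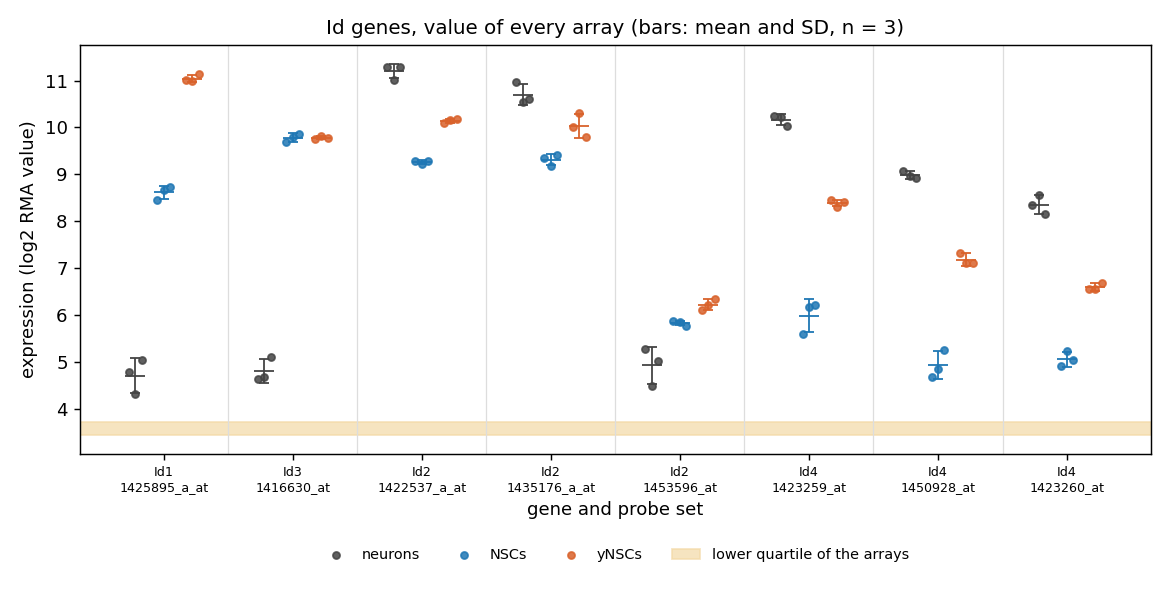
Each point is the log2 RMA value of 1 array for the 8 probe sets of Id1, Id3, Id2 and Id4 in neurons, NSCs and yNSCs, with the mean and SD of 3 arrays, and the shaded band spans the lower quartiles of the arrays. Id1 and Id3 sit near 5 in neurons and above 8 in every stem cell array, while all Id4 probe sets are highest in neurons and lowest in NSCs.

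Of the ligands, Bmp2 and Bmp4 stayed below the array medians in every group and Bmp7 was highest in NSCs. Bmp2, which is close in sequence to Bmp4, gave 4.82, 4.6 and 4.36 in neurons, 3.98, 3.72 and 3.38 in NSCs, and 4.29, 4.29 and 4.50 in yNSCs. The NSC arrays were below all others, with a difference of -0.90 (SE 0.164) from neurons, the yNSCs were 0.67 above them, and the yNSCs overlapped the neurons with a difference of -0.23 (-0.59 to 0.13). Bmp4, a classical inducer of Id genes, gave group means of 3.67 in neurons, 3.08 in NSCs and 3.48 in yNSCs, each near background, so its differences have no reliable size.

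Bmp7, a ligand made by choroid plexus and meninges as well as by neural progenitors, was higher in NSCs than in neurons and yNSCs on all 3 of its probe sets. On 1418910_at the neurons read 3.35, 3.30 and 3.50, the NSCs 6.79, 6.73 and 6.45, and the yNSCs 4.29, 4.18 and 4.01. The groups did not overlap, and the neurons were near background. The NSCs were 3.27 (95% interval 3.0 to 3.55) above neurons, the yNSCs were 0.78 (0.50 to 1.05) above them, and the yNSC to NSC difference was -2.50 (-2.77 to -2.22). On 1435479_at the values were 5.99, 6.12 and 5.58 in neurons, 7.36, 7.25 and 7.0 in NSCs, and 5.90 in every yNSC array at the 2 decimals deposited. There the yNSCs and neurons overlapped, with a difference of 0.00 (-0.32 to 0.33), and the yNSC to NSC difference was -1.30. On 1432410_a_at the yNSC to NSC difference was -1.07 (-1.46 to -0.68), and the yNSCs overlapped the neurons at a difference of 0.33 (-0.06 to 0.72).

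The type I receptor Bmpr1a, which passes BMP signals to the Smads, was higher in both stem cell groups than in neurons on 5 of its 6 probe sets. On the brightest, 1425492_at, the neurons read 8.71, 8.68 and 8.65, the NSCs 10.21, 10.55 and 10.46, and the yNSCs 10.37, 10.21 and 10.17. All stem cell arrays were above all neuron arrays, and the stem cell groups overlapped. The yNSCs were 1.57 (SE 0.115, 95% interval 1.32 to 1.82) above neurons and the NSCs 1.73 (1.47 to 1.98) above. The other 4 of these probe sets were 0.47 to 2.88 higher in yNSCs and 0.65 to 2.48 higher in NSCs, again without overlap with neurons. Between the stem cell groups the differences on these 5 ran from -0.18 to 0.88, and only on 1425491_at did yNSCs exceed NSCs past the threshold. The sixth, 1445413_at, was near background in neurons and NSCs. The annotation gives the same sequence record to the other 5, so those are not independent readings either.

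The inhibitory Smads, which BMP signals induce and which damp the receptors in turn, were low or flat. Smad6, the more BMP-specific of the pair, gave 3.43, 3.32 and 3.11 in neurons, 3.26, 3.36 and 3.36 in NSCs, and 3.85, 3.95 and 4.12 in yNSCs. The yNSC arrays were above all others, by 0.69 (SE 0.118, 95% interval 0.43 to 0.95) against neurons and 0.65 against NSCs, while neurons and NSCs were both near background. Smad7, an inhibitor of BMP and TGF-beta receptors alike, had means of 6.64 in neurons, 6.46 in NSCs and 6.68 in yNSCs on 1423389_at, and all groups overlapped. Its yNSC to neuron difference was 0.05 (-0.21 to 0.30) and its NSC to neuron difference -0.17 (-0.43 to 0.08), which renewed quantile normalisation moved to -0.49, a called value. Its second probe set, 1443771_x_at, was near background in every group.

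**Figure D2:**
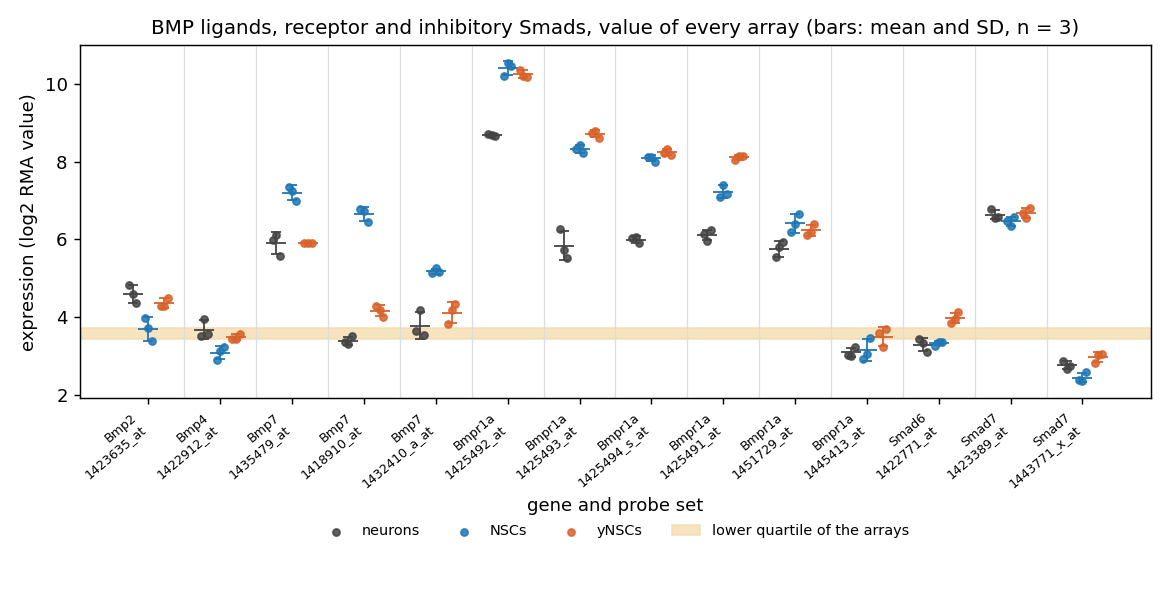
Each point is the log2 RMA value of 1 array for the 14 probe sets of Bmp2, Bmp4, Bmp7, Bmpr1a, Smad6 and Smad7, with the mean and SD of 3 arrays a group, and the shaded band spans the lower quartiles of the arrays. Bmp7 stands out in NSCs, 5 of 6 Bmpr1a probe sets are higher in both stem cell groups than in neurons, and Bmp4, Smad6 and 1 Smad7 probe set lie at or near the band.

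A probe set was called higher or lower where limma gave a Benjamini-Hochberg adjusted p under 0.05 over all 45037 probe sets. Of the 22 member probe sets, yNSCs were called above neurons in 11 and below them in 5, against 28.1% higher and 28.1% lower over the whole array. In NSCs against neurons 11 were called higher and 8 lower, against 30.5% and 32.8% of all probe sets. In yNSCs against NSCs 11 were called higher and 3 lower, against 18.1% and 18.9%. The members had been selected on these contrasts, so nothing is read from the counts. The groups did not overlap for 15 of 22 probe sets between yNSCs and neurons, for 19 between NSCs and neurons and for 17 between yNSCs and NSCs. The share of the whole array without overlap is not given here, so nothing is read from these counts either. The median difference over the 22 member probe sets was 0.37, 0.35 and 0.40 in the 3 comparisons. Over all 18193 genes, with 1 probe set a gene, it was -0.01, -0.07 and 0.07. Genes with several probe sets, such as Bmpr1a with 6, weigh more in the member median, so the medians are not of like units. Among the 8 Id probe sets, 3 were called higher and 5 lower in each comparison with neurons, and 6 were called higher and 0 lower in yNSCs against NSCs, the exceptions being Id3 and the Id2 probe set 1453596_at.

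**Figure D3:**
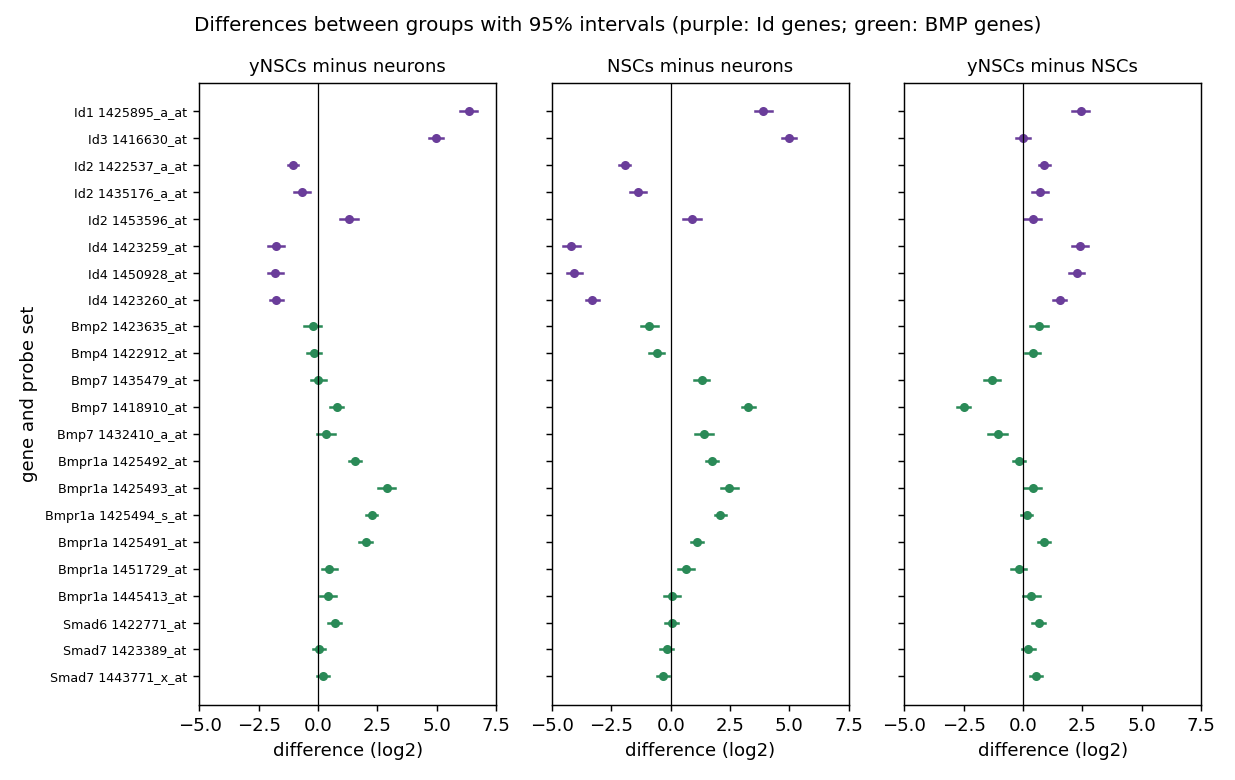
Points are differences between group means on the log2 scale with 95% intervals from the fit over 9 arrays, for the 22 probe sets in the 3 comparisons, with Id genes in purple and BMP genes in green. Id1 and Id3 lie far to the right of 0 and Id4 far to the left in both comparisons with neurons, and against NSCs the yNSCs are higher for Id1 and Id4 and lower for Bmp7.

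Other genes of the pathway were read from a list written from general knowledge of the pathway but with earlier results of these data known, of which 70 are reported here. Each gene is represented by its probe set of highest mean. In yNSCs against neurons 23 of 70 were called higher, 27 lower and 20 not called, beside 34.1% higher and 26.9% lower over all genes, and their median difference was -0.15. In NSCs against neurons 23 were called higher and 31 lower, beside 32.9% and 33.2% of all genes, with the same median of -0.15. In yNSCs against NSCs 13 were called higher and 20 lower, beside 20.6% and 17.5%, with a median of 0.12.

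The Smads that carry the signal were mostly higher in both stem cell groups. Smad5 averaged 7.10 in neurons, 9.70 in NSCs and 8.92 in yNSCs, so it rose by 1.81 in yNSCs (adjusted p = 5.65e-08) and by 2.59 in NSCs (adjusted p = 2.47e-09). Smad1 rose by 0.48 and 0.68 and Smad4, the shared partner, by 0.53 and 1.32 in the same order, all called. With renewed quantile normalisation the yNSC to neuron differences of Smad1 and Smad4 were 0.21 and 0.26, no longer called, and that of Smad1 in NSCs was 0.43. Smad9 had a mean of 3.80 in neurons and was not called in any comparison, with differences of -0.11 and -0.08. Smad4 and Smad5 were lower in yNSCs than in NSCs, with differences of -0.79 and -0.78.

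Receptors other than Bmpr1a did not share its pattern. The type I receptor Bmpr1b read 6.91 in neurons, 8.43 in NSCs and 6.02 in yNSCs. Against neurons it fell by 0.89 in yNSCs (adjusted p = 9.21e-04) and rose by 1.51 in NSCs (adjusted p = 1.19e-05), and the yNSC to NSC difference was -2.41 (adjusted p = 8.09e-07). With the mean of all Bmpr1b probe sets these differences were -0.30, not called, then 0.98 and -1.27. The type II receptor Acvr2a fell by 2.15 in yNSCs (adjusted p = 1.77e-07) and fell by 1.30 in NSCs (adjusted p = 1.29e-05). Acvr1 rose by 0.87 in yNSCs over neurons and Bmpr2 fell by 0.71, while their NSC differences of 0.04 and -0.09 were not called. Another probe set of each of these genes was called the other way, and with the mean of all probe sets the yNSC differences were 0.20 and 0.00 and neither was called.

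Of 8 further genes with ligand names, which include the protease Bmp1, 2 rose and 3 fell in yNSCs and 1 rose and 5 fell in NSCs. Over all genes 34.1% were called higher and 26.9% lower in yNSCs, and 32.9% and 33.2% in NSCs. These shares also stand beside the counts of the lists that follow. Bmp6 was 1.85 higher in yNSCs than in neurons (adjusted p = 9.08e-08), from 3.93 to 5.78, and 2.05 higher than in NSCs (adjusted p = 1.54e-07). Bmp1, a metalloproteinase that cleaves the antagonist chordin rather than a BMP-type ligand, rose by 1.43 in yNSCs and by 1.5 in NSCs, and another of its probe sets was called lower in both. Of 13 secreted antagonists and modulators, 4 rose and 5 fell in yNSCs and 5 rose and 6 fell in NSCs. Chrdl1, which binds BMPs outside the cell, rose by 2.86 in yNSCs (adjusted p = 8.32e-07) and by 1.29 in NSCs, and was 1.57 higher in yNSCs than in NSCs. With the mean of its probe sets these last differences were 2.70 and 0.46. Crim1, a transmembrane protein that retains BMPs, fell by 2.10 in yNSCs (adjusted p = 2.29e-08) and fell by 1.35 in NSCs. Bmper and Sostdc1 rose in NSCs by 1.93 and 1.62 and each fell by 0.86 in yNSCs, with yNSC to NSC differences of -2.79 and -2.48. Noggin (Nog), the best-known antagonist of the adult stem cell niche, was not called in yNSCs against neurons at -0.16 and fell by 0.51 in NSCs (-0.26 and not called with renewed quantile normalisation), and its means of 3.33 in neurons, 2.82 in NSCs and 3.17 in yNSCs were near background.

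Inside the cell, Smurf2, a ubiquitin ligase that removes Smads and receptors, rose by 1.31 in yNSCs (adjusted p = 7.80e-06) and by 1.87 in NSCs. Bambi, a decoy receptor that is itself a BMP target, rose by 1.18 in yNSCs (adjusted p = 9.46e-06) and its NSC difference of 0.02 was not called. Of 10 further target genes, 4 rose and 3 fell in yNSCs and 4 rose and 4 fell in NSCs. Lbh rose by 4.13 in yNSCs (adjusted p = 7.20e-10) and by 2.46 in NSCs, from 5.08 in neurons, although another of its probe sets was called lower in NSCs and the mean of its probe sets gave 2.54 and 0.98. The progenitor repressor Hes1 rose by 1.82 and 2.92, and the AP-1 subunit Junb by 1.97 and 0.52, each in the order yNSCs and NSCs. Leaving out any 1 neuron array, or NSC array A or B, left the Junb difference in NSCs not called. Dlx5, a factor of ventral forebrain interneurons, fell by 2.27 in yNSCs and fell by 2.68 in NSCs, where its mean of 3.10 was near background. Msx1 was not called in yNSCs, at -0.22.

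The E proteins, the binding partners through which Id proteins act, rose in part. Tcf12 averaged 9.13 in neurons, 11.59 in NSCs and 11.80 in yNSCs and so rose by 2.67 in yNSCs (adjusted p = 1.78e-09) and 2.46 in NSCs (adjusted p = 3.22e-09). Tcf3 rose by 1.64 and 2.47 from 6.99. Tcf4 fell by 0.53 in yNSCs (adjusted p = 0.00382), and its NSC difference of -0.09 was not called. With the mean of all Tcf4 probe sets the yNSC difference was -0.23 and not called.

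Of 10 bHLH factors that pair with E proteins, 6 fell and 2 rose in yNSCs and 8 fell and 2 rose in NSCs. The shares over all genes were 26.9% lower and 34.1% higher in yNSCs, and 33.2% and 32.9% in NSCs. Neurod6, a factor of postmitotic cortical projection neurons, was 10 in neurons, 2.11 in NSCs and 2.31 in yNSCs, near background in both stem cell groups. It fell by 7.69 in yNSCs (adjusted p = 9.17e-12) and fell by 7.89 in NSCs (adjusted p = 5.84e-12). Neurod1 fell by 4.12 in yNSCs and fell by 4.24 in NSCs, where its mean of 3.40 was near background. Differences against a level near background have a direction here but no reliable size. The genes that rose were the oligodendrocyte lineage factors Olig1, by 1.19 and 1.29, and Olig2, by 1.97 and 2.70. Among genes that act on Id protein stability, Usp1, a deubiquitinase known to protect Id proteins, rose by 1.96 in yNSCs and 2.62 in NSCs. Cdc20, a mitotic activator of the ubiquitin ligase APC/C that is known to target Id1 in neurons, rose by 3.0 and 4.95. The transcript values say nothing of the protein levels.

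**Figure D4:**
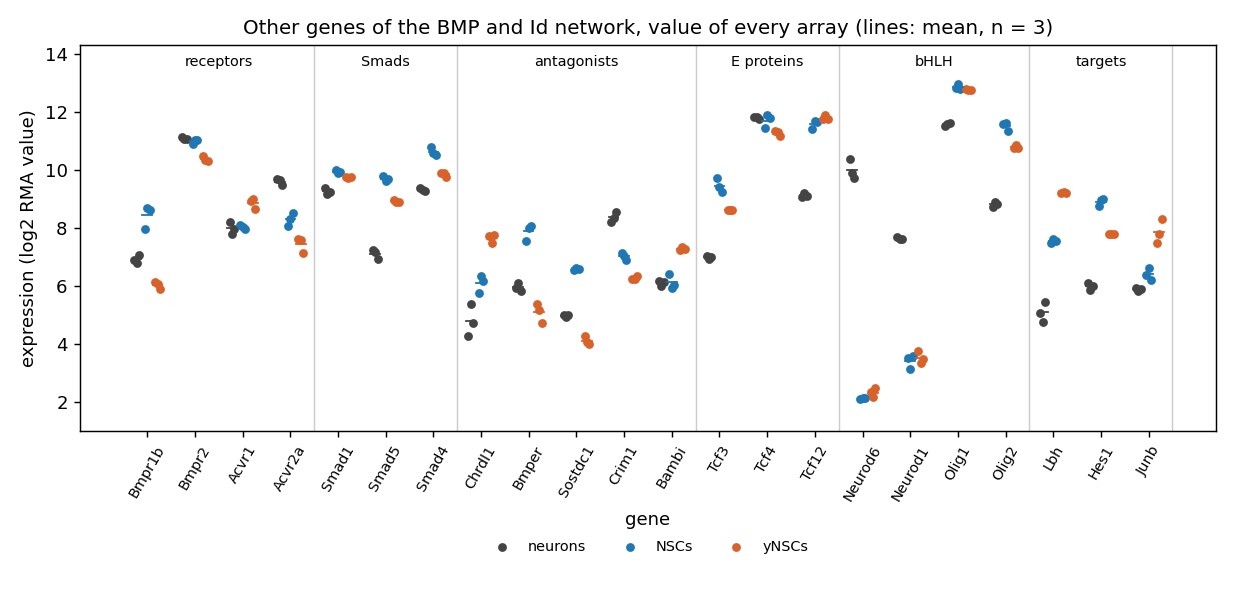
Each point is the log2 RMA value of 1 array for other genes of the network in neurons, NSCs and yNSCs, with a line at the mean of 3 arrays. Smad1, Smad5, Smad4, Tcf3 and Tcf12 are higher in both stem cell groups than in neurons, Neurod6 and Neurod1 are far lower in both, and Bmpr1b, Bmper and Sostdc1 are above neurons in NSCs and below them in yNSCs.

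The genes whose values over the 9 arrays followed each Id gene most closely were found by the root mean square difference after each gene was centred on its own mean. For Id1 they were Emp1 at 0.214, Tcim at 0.263 and Cd44 at 0.371 on the log2 scale. Emp1 read 3.73 in neurons, 7.66 in NSCs and 9.97 in yNSCs. For Id3 they were Ier3 at 0.267, Adgrg6 at 0.269 and Tmem123 at 0.282. For Id2, by its brightest probe set, they were Gm1976 at 0.069, Eif4e3 at 0.092 and St3gal5 at 0.106, and for Id4 C1ql3 at 0.160, Nefl at 0.221 and Gm17750 at 0.246. Nefl, a neurofilament subunit, read 10.42, 6.37 and 8.41 in neurons, NSCs and yNSCs. With 3 groups such likeness mainly restates the order and spacing of the group means.

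Several other measures moved between the groups together with the Id genes. Fewer cells of a type and less RNA per cell cannot be told apart in such bulk samples. Summed over 6 astrocyte markers, expression ranged from 12.64 to 12.72 in neurons, from 11.17 to 11.78 in NSCs and from 12.43 to 12.64 in yNSCs, with Gjb6 near background in all groups, and 4 of 6 were called higher in yNSCs than in NSCs. Id1, Id2 and Id4 differed the same way between the stem cell groups. Microglial markers summed to 11.25 to 11.78 in neurons, 6.27 to 6.32 in NSCs and 7.24 to 7.27 in yNSCs, with Aif1 and Itgam near background in both stem cell groups, and 5 of 6 were lower in yNSCs and 6 of 6 in NSCs than in neurons. Oligodendrocyte precursor markers, 4 of 5 measured, summed to 9.82 to 10.11, 8.77 to 8.83 and 6.77 to 6.95 in the same order, with 4 of 4 lower in yNSCs than in neurons and only Gpr17 near background, in yNSCs. In NSCs they did not run one way, as Cspg4 was called higher than in neurons by 1.57 while Pdgfra, Sox10 and Gpr17 were called lower. Endothelial markers, whose cells are rich in Id1, summed to 7.06 to 7.23 in neurons, 6.67 to 6.81 in NSCs and 6.95 to 7.17 in yNSCs, with 0 of 6 called higher in yNSCs than in neurons, Flt1 called higher in yNSCs than in NSCs by 1.07, as Id1 was, Cldn5 called higher in NSCs than in neurons by 0.38, and Pecam1 and Tek near background in all groups. Markers of mural cells, fibroblasts and meninges summed to 8.78 to 8.85, 9.26 to 9.75 and 10.77 to 11, with Col3a1 and Lum near background in neurons and yNSCs. Acta2, with means of 9.10 in NSCs and 10.79 in yNSCs, made up most of the sum in both stem cell groups. In yNSCs only Acta2 of these 7 was higher than in neurons and 5 were lower. In NSCs Acta2, Col3a1 and Col1a2 were called higher than in neurons, with differences of 3.15, 1.39 and 0.42, and only Dcn was called lower, at -3.54.

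The difference between 3′ and 5′ control probe sets, a sign of RNA integrity and of labelling, was 0.03 to 0.21 in neurons, 0.56 to 0.70 in NSCs and 0.19 to 0.31 in yNSCs for Actb on the log2 scale. For Gapdh it was -0.19 to -0.17, 0.11 to 0.28 and -0.09 to -0.04. Both controls were highest in NSCs, the group in which Id4 and 2 of the 3 Id2 probe sets were lowest. The part of these measures, of the media and of proliferation in the differences of the Id and BMP genes was not tested.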

How the data were processed

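RNA of neurons, NSCs and yNSCs (3 arrays each) had been extracted with Trizol, labelled as biotinylated cRNA and hybridised to Affymetrix Mouse430_2 arrays. From the scans the authors derived 1 log2 value a probe set by RMA, deposited at 2 decimals. The version of RMA and the set of arrays normalised together are not given in the sources used here. They were used without further scaling. No 2 arrays held the same values (0 identical). For arrays, the precision is limited by their number.

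Of 45101 probe sets 64 controls were left out. Symbols came from the platform annotation, which gave 1 symbol to 34945 probe sets (34741 matched to RefSeq genes of GRCm38.p6), several to 932 and none to 9160. The probe set of highest mean over the 9 arrays represented a gene, except that members were read from every probe set. A group-means model over all 9 arrays was fitted with limma 3.58.1 in R 4.3.3 (6 residual and 5.33 prior degrees of freedom), two-sided, with Benjamini-Hochberg adjustment over 45037 probe sets. The methods text used here names no test for these arrays. With 3 arrays against 3, an exact permutation test of a single value cannot go below p = 0.1, and none was used. The fit was tested on simulated data.

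The members, lists and tests were chosen with earlier results of these data known. Genes named from the pathway lists were the called genes of largest difference in a list and comparison, up to 1 not called, and a few core components. Other probe sets were called the opposite way for 5 of 50, 7 of 54 and 2 of 33 called pathway genes in yNSCs against neurons, NSCs against neurons and yNSCs against NSCs. Promoter windows came from a table of RefSeq promoters supplied for this work, in which 6 of 9 members looked up had a window, and Smad7 was not looked up. Alternatives comprised a block for the replicate letter, a fit to the 6 arrays in question alone, removal of the 40% of probe sets of lowest mean, renewed quantile normalisation, subtraction of array medians, a variance trend with robust prior, a gene's mean over its probe sets, each array left out in turn and, chosen after seeing the data, a fit with 1 probe set a gene.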

Additional observations from a re-analysis of the deposited data

Results flagged for a closer look

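In 7 features all arrays of one stem cell group lay above the neuron mean and all arrays of the other below it. The features were picked by this pattern, so a yNSC to NSC difference without overlap was fixed by the choice. The adjusted p of that contrast is therefore given as a description and not as support. How often the whole array shows the pattern is not given here. Bmper stood at 5.95 in neurons, 7.88 in NSCs and 5.09 in yNSCs, a difference between yNSCs and NSCs of -2.79 (limma, adjusted p = 3.40e-07). For Sostdc1 that difference was -2.48 (adjusted p = 1.32e-08) around a neuron mean of 4.96. Bmpr1b differed by -2.41 (adjusted p = 8.09e-07), with 6.91 in neurons. Zeb2, a repressor that binds Smads, differed by -1.05 (adjusted p = 5.45e-05), but its fall of 0.35 in yNSCs against neurons was lost when array A or C of the neurons or any yNSC array was left out, and another of its probe sets was called the opposite way.

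Bmp6 ran the other way, with 5.78 in yNSCs, 3.73 in NSCs and 3.93 in neurons, a difference of 2.05 (adjusted p = 1.54e-07), and its NSC to neuron difference of -0.20 was not called. Nbl1, a secreted antagonist, differed by 0.80 (adjusted p = 4.90e-04), and its rise of 0.34 in yNSCs over neurons was not called without any 1 of 7 arrays, all but NSC array A and yNSC array A. The Smad7 probe set 1443771_x_at, a member and so not tested, differed by 0.53 while near background in every group.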

How the results depend on the processing

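Results were recomputed under 17 alternatives. No difference of a member probe set changed sign where it was called, and of 972 member values 943 moved by less than the spread between replicates and 29 by more. Quantile normalisation moved the median gene by 0.05, 0.07 and -0.01 in yNSCs against neurons, NSCs against neurons and yNSCs against NSCs, and subtraction of array medians by 0.09, 0.05 and 0.04. Single genes moved further under quantile normalisation, and in both directions. Smad1 went from 0.48 to 0.21 in yNSCs against neurons, and Smad6 from 0.04 to 0.31 in NSCs against neurons. Without the 40% of probe sets of lowest mean, which removes some members, 5 member probe sets in place of 8 were lower in NSCs than in neurons and 7 in place of 11 higher in yNSCs than in NSCs. Leaving out each array in turn gave 9 to 11 member probe sets higher in yNSCs than in neurons, 7 to 8 lower in NSCs than in neurons, and 10 to 13 higher in yNSCs than in NSCs. The members concerned were Bmp4, Smad7 1443771_x_at, Id2 1453596_at (0.40 in yNSCs against NSCs, called without neuron array A or B), Bmpr1a 1425493_at (0.40, called without neuron array A), Bmp7 1432410_a_at (0.53 in yNSCs against neurons without neuron array B and 0.48 without yNSC array A, both called) and 2 dim Bmpr1a probe sets, 1451729_at (0.36 without neuron array A and 0.39 without yNSC array C) and 1445413_at (0.32 to 0.41), both not called then in yNSCs against neurons.

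The pathway genes higher in yNSCs than in NSCs numbered 8 to 15 with an array left out, against 13, and 8 without yNSC array A or C. Of the pathway gene values 3347 kept their side of the threshold, 141 were no longer called and 30 became called. A further 13 changed sign while called in the main fit or in the alternative. The 3347 include values called in neither fit whose sign changed, such as Wdr48 in NSCs against neurons, with 0.16 in the main fit and -0.19 at the lowest. With a gene's mean over its probe sets, Ppm1a changed sign to 0.25 in yNSCs against neurons. In NSCs against neurons so did Bmpr2 (0.86), Acvr1 (-0.63, and -0.31 with quantile normalisation), Rgmb (-0.96), Twsg1 (-0.19), Ski (0.59), Ppm1a (0.13) and Msx1 (0.01), and in yNSCs against NSCs Bmp1 (0.29), Acvr2b (-0.44), Tob1 (0.44) and Tcf12 (-0.31). The same mean moved Bmp1 and Crim1 in NSCs against neurons to 0.97 and -0.87 and Smurf2 in yNSCs against neurons to 0.80, all called. The causes were not tested. Same-lettered arrays correlated between -0.111 and 0.072 in their deviations from group means, so no strong pattern across probe sets was shared by letter. A shift of all values of an array would not show in such a correlation. These values cannot tell whether same-lettered samples were derived or prepared together. With the letter as a replicate block the member counts stayed at 11 and 5, 11 and 8, and 11 and 3 higher and lower in the 3 comparisons, and the pathway counts were 22 and 25, 23 and 30, and 11 and 20.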
